A study of Mus musculus with 30 samples.

Results

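The 38 genes described here encode the enzymes and regulators that take glucose to pyruvate and lactate, carry pyruvate into the mitochondrion and its dehydrogenase complex, and divert glucose 6-phosphate through the pentose phosphate pathway. They were chosen as a written list of genes out of 21761 protein-coding symbols in the RNA-seq files. The choice was not made by a cut on their values, but earlier results of these data were known. All 38 were present in the files and passed the filter on low counts in each comparison. By role, 8 belong to upper glycolysis, 4 are PFKFB enzymes, 7 belong to lower glycolysis, 2 are lactate dehydrogenase subunits, 4 are pyruvate dehydrogenase kinases, 6 import pyruvate or form its dehydrogenase complex, 3 belong to the oxidative and 4 to the non-oxidative branch of the pentose phosphate pathway. Counts below are estimated reads or fragments per gene, and TPM is the same estimate divided by transcript length and scaled to a common total per library, so that only TPM is compared between genes.

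The study asked how brain endothelial cells (ECs) change when they are grown in culture. Its RNA-seq libraries came from 2 samples of acutely isolated ECs, which were GFP-positive cells sorted from the brains of adult male Tie2-GFP mice, and from 2 samples of the GFP-negative cells of such mice. The authors combined the data of cerebrum and cerebellum in each of these 4 libraries, and the reads were single and 75 cycles long. A further 6 libraries came from wild-type (WT) brain ECs of adult male mice grown for 8 days after selection with puromycin. WT replicates 1 and 2 were C57BL/6J cells isolated by method A (papain digestion) and read in pairs of 36 cycles, replicates 3 and 4 were Ctnnb1flex3/+;Tie2-GFP cells isolated by method B (Dounce homogenization, then collagenase and dispase) and read in pairs of 150 cycles at another facility, and replicates 5 and 6 were of that genotype and method and read for 36 cycles. The last 4 libraries came from beta-catenin stabilized cells of genotype Ctnnb1flex3/+;Pdgfb-CreER;Tie2-GFP, method A having been used for replicates 1 and 2 and method B for 3 and 4, all read for 36 cycles. In these mice Cre under the Pdgfb promoter, which is active in ECs, removes exon 3 of 1 Ctnnb1 allele after 4-hydroxytamoxifen, and the Ctnnb1flex3/+ WT mice had received the same agent without carrying Cre. Each culture pooled the brains of several mice, and the replicates are wells, so that p-values measure the spread between wells and experiments. Within 1 isolation method at 36 cycles each genotype had 1 experiment, and p-values there measure the spread between wells alone. ATAC-seq peaks were available for 2 acutely isolated, 6 WT and 2 stabilized samples, the last from method B.

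Glycolysis splits glucose into pyruvate and yields ATP without oxygen, and ECs are known to draw most of their ATP from it. Pyruvate is either reduced to lactate or oxidized in mitochondria, a choice that the pyruvate dehydrogenase kinases tilt toward lactate. The pentose phosphate pathway runs beside glycolysis, with an oxidative branch that supplies NADPH and a non-oxidative branch that exchanges sugar phosphates and supplies ribose for nucleotides.

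The libraries held 24284843 to 94686456 counts. All 10 endothelial markers (Pecam1 and Cdh5 among them) were above 1 TPM in every acutely isolated and cultured library, with a summed TPM of 2850 to 3690 in acutely isolated, 2260 to 5650 in WT and 2470 to 7200 in stabilized cells, against 103 to 113 in GFP-negative cells. Mitochondrial genes took 10.6% to 24.2% of the counts in sorted cells and 0.667% to 2.58% in cultures. Erythrocyte markers summed to 5450 and 41100 TPM in the acutely isolated libraries, the higher value in replicate 2, and to at most 1.41 in WT cultures. Proliferation markers ran the other way, at 0.618 to 4.71 TPM in acutely isolated and 13.9 to 157 in WT cultured cells. Astrocyte markers summed to 117 and 491 TPM in acutely isolated and 3.42 to 45.8 in WT cultured cells. Pericyte and smooth muscle markers summed to 481 to 573 and then 508 to 3080 TPM, a sum that hid opposite moves. Rgs5 fell from 211 to 322 TPM to 0.0218 to 1.37. Kcnj8 fell from 6.98 to 11.4 and Abcc9 from 11.2 to 11.5, both to under 1 in cultures. Pdgfrb and Myh11 were lower in WT cultures too. Tagln rose from 93.2 to 98.0 to 332 to 2320 TPM, Acta2 and Cnn1 were also higher, and Cspg4 overlapped. The part of these shifts in the results was not tested. The mean transcript length that the quantification gave a gene was larger in culture, by a median factor of 1.92 over 13757 genes and of 2.14 over the 38 members. Culture cannot be told apart from read format, genotype or isolation procedure in any comparison with the acutely isolated cells, and in bulk RNA fewer cells of a type and less RNA per cell cannot be told apart.

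Pyruvate kinase differed between the groups in the choice of an exon, and the sequences of its exons are given first. Pkm (ENSMUSG00000032294.17, chr9:59656368-59679375 of GRCm38, plus strand) makes either the M1 or the M2 form of the enzyme by including 1 of 2 neighbouring exons, of which the upstream exon gives M1, the form of muscle and nerve, and the downstream exon gives M2, the form of embryonic and dividing cells. Each exon has 167 bases, and they differ at 64 of them (61.7% identical), which is what allows reads to be assigned. The upstream exon lies at chr9:59675029-59675195 and the downstream exon at chr9:59675568-59675734, and the capitals below mark the bases at which they differ.
M1 exon (upstream): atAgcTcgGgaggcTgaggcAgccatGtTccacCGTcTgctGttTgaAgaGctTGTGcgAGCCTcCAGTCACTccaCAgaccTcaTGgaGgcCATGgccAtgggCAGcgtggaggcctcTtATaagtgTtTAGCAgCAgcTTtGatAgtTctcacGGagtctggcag
M2 exon (downstream): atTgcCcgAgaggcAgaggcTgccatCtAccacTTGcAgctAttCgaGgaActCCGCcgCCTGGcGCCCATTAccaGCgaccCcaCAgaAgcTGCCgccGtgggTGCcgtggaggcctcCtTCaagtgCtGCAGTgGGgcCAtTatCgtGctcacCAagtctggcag
Each exon as a whole belongs to 1 annotated transcript, and transcripts with neither or with a part of one are counted apart.

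The downstream exon was in the minority in GFP-negative cells and in the large majority in culture. It made up 24.0% and 23.2% of the Pkm TPM with either exon in GFP-negative replicates 1 and 2, 34.4% and 50.8% in acutely isolated replicates 1 and 2, and 86.8%, 85.7%, 89.7%, 90.1%, 84.4% and 83.7% in WT cultures 1 to 6. The 4 stabilized cultures had 90.1%, 89.4%, 87.3% and 87.8%. The acutely isolated cells thus lay between the GFP-negative cells and the cultures, and no library of one of these groups reached the range of the next, except that WT and stabilized cultures overlapped. Both forms were present in culture, since the TPM with the upstream exon was 60.4 and 84.4 in acutely isolated cells and 82.2 to 216 in WT cultures, while that with the downstream exon went from 31.7 and 87.0 to 540 to 1880. In acutely isolated replicate 1 a further 87.8 TPM of Pkm carried neither exon, which lowers the precision of its share. The shares computed from counts were 35.8% and 53.3% in acutely isolated and 85.4% to 91.1% in WT cultured cells. These shares come from Salmon's assignment of reads to transcripts and were not tested.

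**Figure D1:**
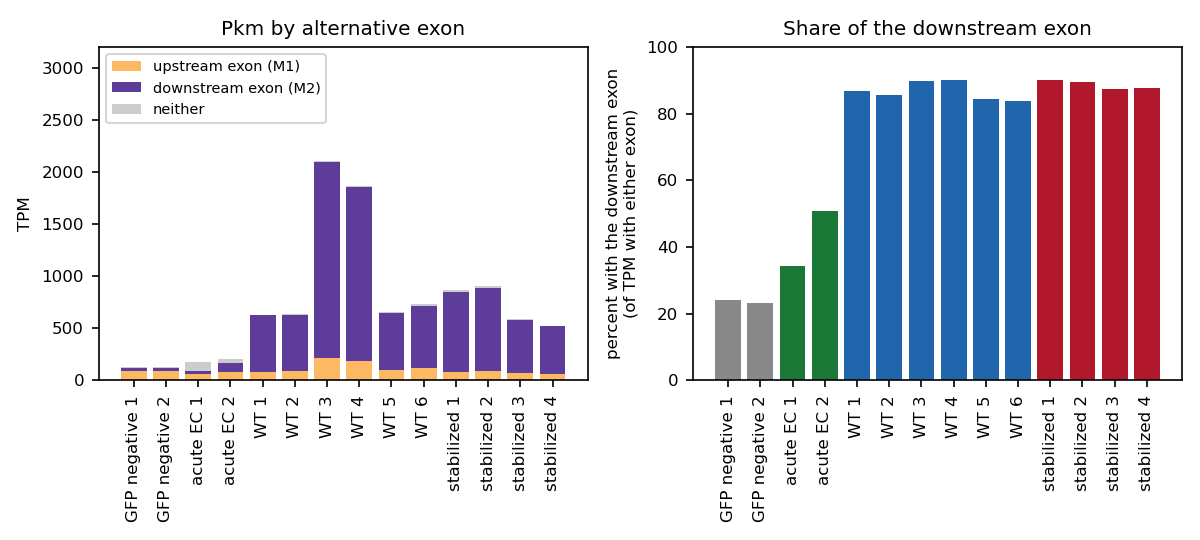
The left panel stacks the TPM of Pkm transcripts with the upstream exon, the downstream exon or neither in each of the 14 libraries, and the right panel gives the downstream exon's share of the TPM with either exon in percent, with bars colored by group (gray GFP-negative, green acutely isolated, blue WT, red stabilized). The share was 23.2% to 24.0% in GFP-negative, 34.4% to 50.8% in acutely isolated and 83.7% to 90.1% in all cultured libraries.

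Of the 38 genes, 14 were called higher and 2 lower in the 6 WT cultures than in the 2 acutely isolated libraries. A call needed an adjusted p under 0.05 in edgeR's quasi-likelihood test, an absolute log2 fold change over 1 and at least 5 TPM in every library of the higher group. By this rule 36.8% of the members were called higher, against 13.6% of all 13757 genes tested, and 5.26% lower, against 10.3% of all genes. The median log2 fold change of the members was 1.15, against 0.10 over all genes. The TPM ranges of the groups did not overlap for 21 members that were higher in culture and 1 that was lower, where 32.1% and 16.3% of all genes had such ranges. As a share of all counts, the members took 0.217% and 0.227% in acutely isolated cells, 0.733% to 1.89% in WT cultures and 0.333% to 0.358% in GFP-negative cells.

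**Figure D2:**
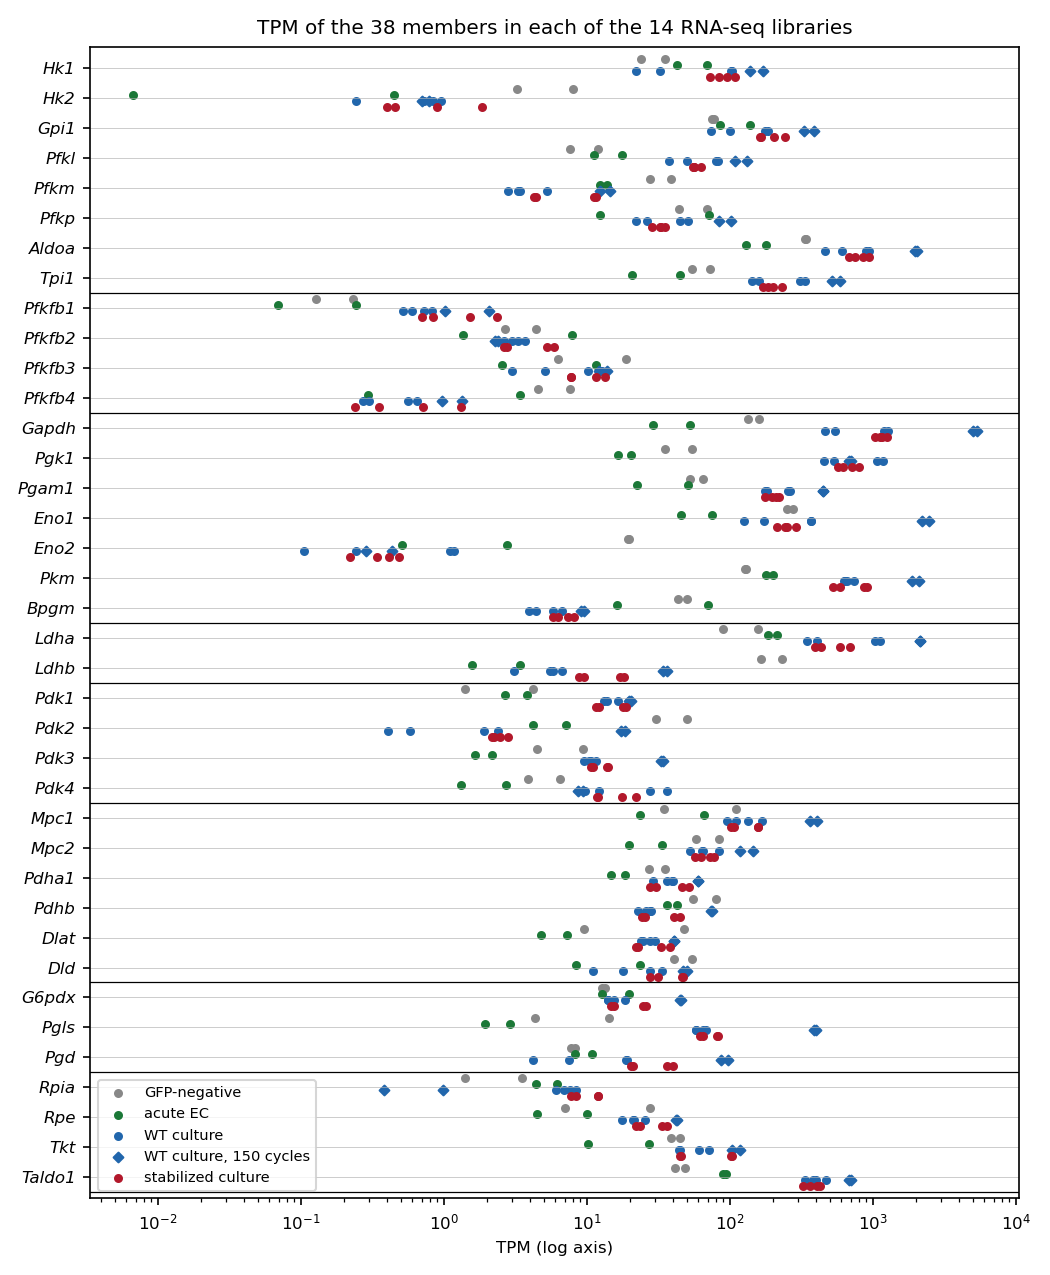
Each point is the TPM (log axis) of 1 member in 1 library, with genes grouped by role between the horizontal lines, from upper glycolysis at the top to the non-oxidative pentose phosphate branch at the bottom. Colors mark the groups and diamonds the 2 WT libraries of 150 cycles, which hold the highest TPM of WT culture for most members, while for Pgk1, Gapdh and Pgls every cultured point lies right of both acutely isolated points.

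In upper glycolysis, which turns glucose into triose phosphates, aldolase and triose phosphate isomerase rose and the muscle form of phosphofructokinase fell. Aldoa, the aldolase that splits the hexose, had 129 and 180 TPM in acutely isolated cells and 458 at the lowest, 916 as the median and 2030 at the highest in WT cultures, a log2 change of 2.95 (SE 0.49, adjusted p = 0.00166). Tpi1, which interconverts the triose products, had 20.5 and 44.9 TPM and then 142, 322 and 584, a log2 change of 3.32 (SE 0.57, adjusted p = 0.002). For both genes all 6 cultures lay above both acutely isolated libraries.

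Pfkm had 13.7 and 12.3 TPM in acutely isolated cells and 2.80, 4.31 and 14.6 as lowest, median and highest TPM in WT cultures, so that the TPM ranges overlapped although its counts gave a log2 change of -2.29 (SE 0.47, adjusted p = 0.00475). The call rested on acutely isolated replicate 1, where Pfkm had 147 CPM (counts scaled by library size) against 26.8 in replicate 2, and without replicate 1 the log2 fold change was -0.59 (adjusted p = 0.196). The other phosphofructokinases, the liver form Pfkl and the platelet form Pfkp, had log2 fold changes of 0.92 (SE 0.40) and 1.37 (SE 0.53) and were not called. The share of Pfkl in the TPM of the 3 phosphofructokinases was 11.6% and 41.8% in acutely isolated cells and 52.8% to 62.6% in WT cultures, but as a share of counts it was 38.6% and 70.3% and then 54.5% to 64.4%, which overlapped, whereas that of Pfkm was 14.3% and 29.1% and then 2.21% to 6.43% of TPM, and 13.6% and 38.2% and then 2.32% to 6.87% of counts.

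Hexokinase, which traps glucose as glucose 6-phosphate, was almost entirely Hk1 in ECs in or out of culture. Hk1 made up at least 98.9% of the TPM of Hk1 and Hk2 in both acutely isolated libraries and 97.8% to 99.5% in WT cultures, against 75.1% and 91.6% in GFP-negative cells. Its TPM was 68.8 and 42.3 in acutely isolated cells and 22.2, 102 and 169 as lowest, median and highest in WT cultures, with overlapping ranges and a log2 change of 0.38 (SE 0.70, adjusted p = 0.678). Hk2, the hexokinase of muscle and many tumors, had 4 and 13 counts in the acutely isolated libraries and at most 0.954 TPM in WT cultures, below the minimum for a call. Gpi1, the isomerase after hexokinase, had 137 and 84.9 TPM and then 73.5, 180 and 386, with a log2 change of 1.02 (SE 0.49, adjusted p = 0.119).

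The 4 PFKFB genes encode the enzymes that make and break down the main activator of phosphofructokinase, and none of them was called. Pfkfb3, the form best known in ECs, had 2.53 and 11.5 TPM in the acutely isolated libraries and 3.0, 11.2 and 13.8 in WT cultures, so that the spread between the 2 acutely isolated libraries covered most of the range of the cultures. Pfkfb2 had 1.37 and 7.89 TPM and then 2.28 to 3.70, and Pfkfb4 had 0.294 and 3.41 and then 0.272 to 1.34. Pfkfb1 stayed under 5 TPM in every library, with 2.06 TPM as its highest value in WT culture. Their log2 fold changes ran from -0.94 for Pfkfb2 to 1.91 for Pfkfb1, with a median of 0.48.

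Lower glycolysis, from glyceraldehyde phosphate to pyruvate, held the largest changes, with 5 of its 7 genes called higher and a median log2 fold change of 2.47. Pgk1, the first ATP-yielding step, had 16.4 and 20.4 TPM in acutely isolated ECs and 455, 691 and 1180 as lowest, median and highest in WT cultures, a log2 change of 5.20 (SE 0.89, adjusted p = 0.00195). Gapdh, the dehydrogenase before it, had 52.4 and 28.9 TPM and then 462, 1230 and 5320, a log2 change of 4.63 (SE 0.99, adjusted p = 0.00553). Eno1, the ubiquitous enolase, had 45.8 and 74.8 TPM and then 125, 368 and 2450, a log2 change of 4.35 (SE 0.98, adjusted p = 0.00697). None of these genes overlapped between the groups, and the lowest culture of Eno1 and Gapdh was WT replicate 1 and the highest WT replicate 3.

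Pgam1, the mutase of this stretch, had 50.7 and 22.5 TPM in acutely isolated and 176, 258 and 448 in WT cultured cells, a log2 change of 2.25 (SE 0.56, adjusted p = 0.0105). Total Pkm had 180 and 201 TPM and then 631, 696 and 2110, a log2 change of 2.47 (SE 0.37, adjusted p = 0.00109), beside the change in exon given above. Both groups of libraries were separate for these genes too.

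Bpgm went the other way. It makes bisphosphoglycerate, the ligand that lowers the oxygen affinity of hemoglobin, and is known mainly from red cells. Its TPM was 16.2 and 70.4 in acutely isolated replicates 1 and 2, 43.1 and 50.2 in GFP-negative cells and 3.92, 6.23 and 9.61 in WT cultures, a log2 change of -3.22 (SE 0.39, adjusted p = 0.000422) with no overlap between acutely isolated and cultured cells. Of the acutely isolated libraries, replicate 2 had both the higher Bpgm and the higher share of hemoglobin counts (2.13% against 0.329%). In GFP-negative replicates 1 and 2 hemoglobin took 0.0806% and 0.779%, beside 43.1 and 50.2 TPM of Bpgm. In WT cultures hemoglobin took 0.0001% or less. Of the 9 erythrocyte markers 5 or 6 were at 1 TPM or more in the acutely isolated libraries and at most 1 in any WT culture, with Alas2, the enzyme of heme synthesis in red cells, at 25.5 and 119 TPM and 0 in cultures, while Slc4a1 and Epb42 were under 1 TPM in both groups, and the part of red cell RNA in the Bpgm value was not tested. Eno2, the neuronal enolase, had 0.506 and 2.74 TPM in acutely isolated and at most 1.17 in WT cultured cells and was not called.

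Copies of these genes elsewhere in the genome bear on the largest folds. Near-identical transcripts of other genes and pseudogenes (at least 95% identical over at least 0.5 of the copy) exist for 12 members, and Eno1, Gapdh and Pgk1 lost a large share of counts to them. In acutely isolated replicates 1 and 2 the copies held 75.9% and 71.7% of the counts of Eno1 with its copies, 69.3% and 84.0% for Gapdh and 62.0% and 49.2% for Pgk1. In WT cultures the shares were 0.0415% to 66.6% for Eno1, 3.99% to 38% for Gapdh and at most 6.83% for Pgk1. WT replicates 1 and 2 (36 cycles) had 0.16% and 0.206% in Eno1 copies and WT replicates 5 and 6 (also 36 cycles) had 66.4% and 66.6%, and the part of read length in these shares was not tested. With the counts of copies added to each gene, the log2 fold changes were 4.03 for Pgk1 (adjusted p = 0.00614), 3.02 for Gapdh (adjusted p = 0.0183) and 3.05 for Eno1 (adjusted p = 0.0364), and all 3 were still called. Among the ECs no other member had more than 3.95% of its counts in copies.

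**Figure D3:**
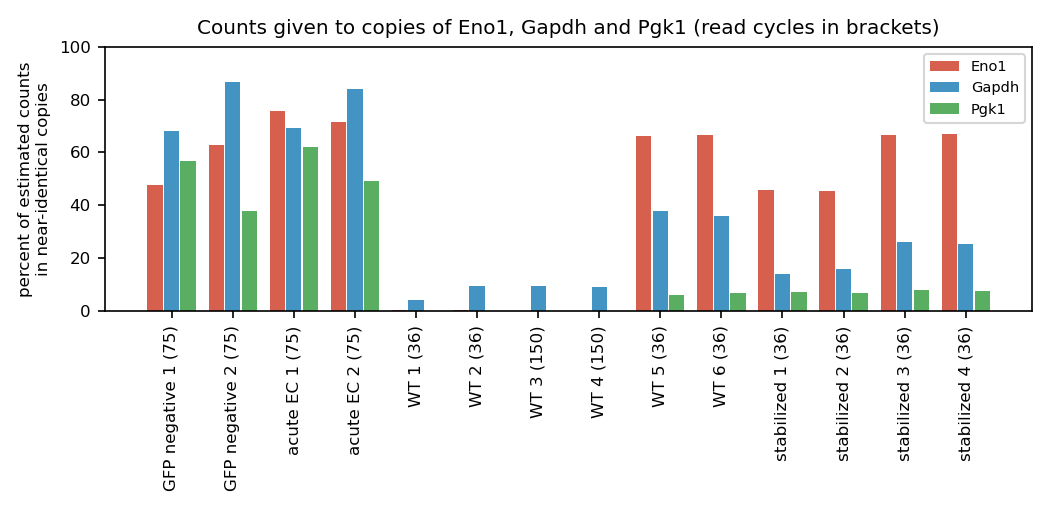
Bars give the percent of estimated counts that fell on near-identical copies of Eno1, Gapdh and Pgk1, out of the gene and its copies together, in each of the 14 libraries, with the read cycles in brackets. Sorted cells gave 38% to 86.8% to copies for these 3 genes, WT replicates 1 to 4 at most 9.34%, and the remaining cultures 45.3% to 67.0% for Eno1.

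Pyruvate becomes lactate through lactate dehydrogenase, and ECs used its A subunit almost alone. Ldha had 184 and 212 TPM in acutely isolated cells and 343, 1080 and 2140 as lowest, median and highest in WT cultures, with no overlap and a log2 change of 2.17 (SE 0.68, adjusted p = 0.0277). This call was lost in 6 of 21 alternative settings, among them those with only 36-cycle cultures (1.99, adjusted p = 0.0558) and with the libraries of shared replicate numbers, WT replicates 1 and 2 (0.86, adjusted p = 0.0707, with the block and 0.82, adjusted p = 0.0721, without it). Ldhb, the subunit of heart and neurons, had 1.58 and 3.41 TPM and then 3.07, 6.24 and 36.4, which overlapped, and was not called (1.58, SE 0.65, adjusted p = 0.0733). Its share of the TPM of both subunits was 0.851% and 1.58% in acutely isolated ECs, 0.551% to 1.67% in WT cultures and 59.5% and 64.7% in GFP-negative cells.

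The pyruvate dehydrogenase kinases, which switch the complex off by phosphorylation, differed from one another. Pdk3 had 1.65 and 2.18 TPM in acutely isolated ECs and 9.50, 11.1 and 34.2 in WT cultures, a log2 change of 2.5 (SE 0.47, adjusted p = 0.00311). Pdk1 and Pdk4 were also higher in all 6 cultures than in both acutely isolated libraries. Pdk1 had 3.80 and 2.67 and then 13.2 to 20.2 TPM, but a log2 fold change in counts of 0.89 (SE 0.24, adjusted p = 0.0151), under the minimum. Pdk4 had 1.32 and 2.72 and then 8.65 to 36.4 TPM, with a log2 change of 2.0 (SE 0.89, adjusted p = 0.0942). When the test allowed for the length of transcripts in each library, both passed, at 1.77 (adjusted p = 0.0164) and 2.78 (adjusted p = 0.0388). Pdk2 had 4.17 and 7.18 TPM and then 0.407 to 18.5, spanning the acutely isolated values, and its share of the TPM of the 4 kinases was 38.2% and 48.7% in acutely isolated and 0.804% to 22.6% in WT cultured cells.

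Among the 6 genes of pyruvate import and the dehydrogenase complex, Dlat alone was called. Dlat, the acetyltransferase core of the complex, had 4.80 and 7.31 TPM in acutely isolated and 23.9, 28.8 and 40.9 in WT cultured cells, a log2 change of 1.39 (SE 0.27, adjusted p = 0.00327). None of the complex's other subunits passed, and their log2 changes were 0.63 for Pdha1, -0.14 for Pdhb and 0.58 for Dld. Mpc1 and Mpc2, which form the mitochondrial pyruvate carrier, did not overlap in TPM, at 23.4 to 66.0 against 94.8 to 405 for Mpc1 and 19.6 to 33.5 against 52.5 to 145 for Mpc2, but had log2 fold changes of 1.03 (adjusted p = 0.193) and 0.57 (adjusted p = 0.143). With transcript lengths allowed for, Mpc2 passed at 1.08 (adjusted p = 0.0153).

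In the oxidative branch of the pentose phosphate pathway the middle enzyme changed and its neighbours did not pass. Pgls, the lactonase, had 2.90 and 1.93 TPM in acutely isolated ECs and 57.4, 66.1 and 397 as lowest, median and highest in WT cultures, a log2 change of 4.64 (SE 0.51, adjusted p = 0.000276), the smallest adjusted p among the members. G6pdx, the dehydrogenase that commits glucose 6-phosphate to the branch, had 19.7 and 12.8 TPM and then 14.1, 16.9 and 45.2, a log2 change of 0.15 (SE 0.43, adjusted p = 0.794). Pgd, the last enzyme of the branch, had 8.23 and 10.8 TPM and then 4.19, 18.9 and 96.6, with WT replicates 1 and 2 below and the other cultures above the acutely isolated cells (0.91, SE 0.80, adjusted p = 0.374).

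In the non-oxidative branch 3 of 4 genes were called higher. Taldo1, transaldolase, had 90 and 93.8 TPM in acutely isolated and 335, 435 and 698 in WT cultured cells, a log2 change of 1.73 (SE 0.44, adjusted p = 0.0123). Tkt, transketolase, had 10.2 and 27.3 and then 43.7, 66.2 and 118 TPM (1.48, SE 0.32, adjusted p = 0.00596), and Rpe, the ribulose phosphate epimerase, had 4.48 and 9.95 and then 17.7, 23.3 and 42.3 TPM (1.27, SE 0.28, adjusted p = 0.00659). The Tkt value depended on which transcripts were summed, since its log2 fold change was 0.22 (adjusted p = 0.678) over protein-coding transcripts alone. With the wells of each experiment summed, which leaves 3 WT cultures, Taldo1 (1.80, adjusted p = 0.0549) and Rpe (1.36, adjusted p = 0.0634) no longer passed, and Rpe was also lost over protein-coding transcripts (0.95). Rpia, the ribose phosphate isomerase, had 4.37 and 6.16 TPM and then 0.382 to 8.39 and was not called.

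**Figure D4:**
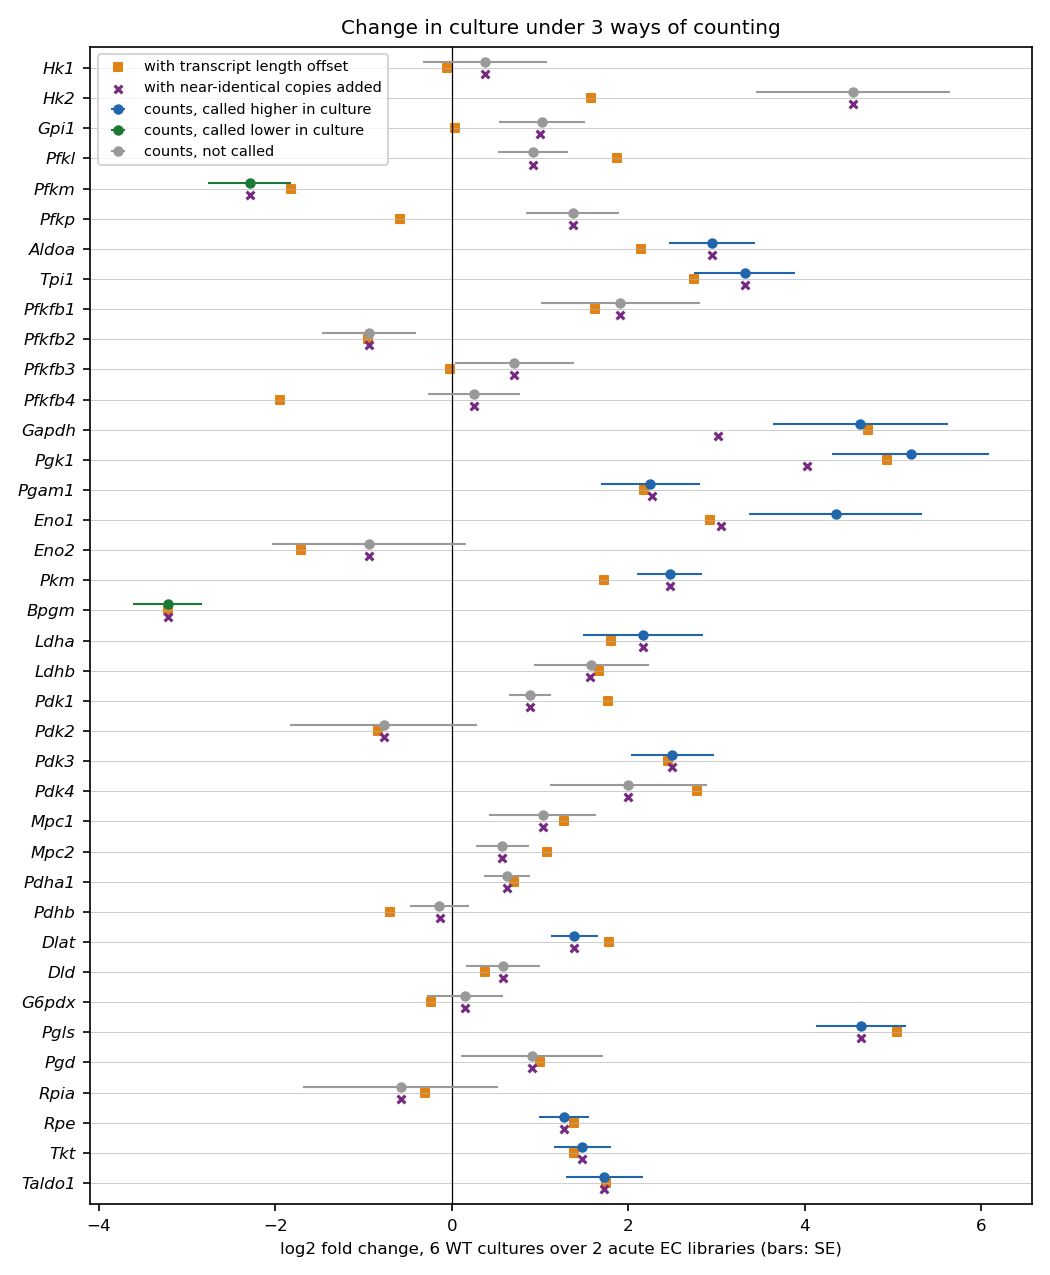
Points with bars give the log2 fold change of each member in counts, 6 WT cultures over 2 acutely isolated libraries, with the SE and colored by call, squares the same with an offset for transcript length, and crosses the same with near-identical copies added. The copies moved Gapdh, Pgk1 and Eno1 by over 1 log2 unit, and the length offset moved Pfkp from 1.37 to -0.59.

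Allowing for transcript length raised the number called higher to 18, with Pfkl, Pdk1, Pdk4 and Mpc2 added and no gene lost, and left the same number of 2 lower. Over all 13757 genes tested, this changed the calls from 1867 higher and 1411 lower to 1781 and 1819. Of the 16 calls, the 9 of Aldoa, Tpi1, Gapdh, Pgk1, Pkm, Bpgm, Pdk3, Dlat and Pgls were made under each of the 21 alternative settings tried. With wells summed by experiment, 11 members were called higher and 2 lower, with Ldha, Rpe and Taldo1 lost. Of all 14025 genes tested there, 1279 were called higher and 838 lower. Leaving out single libraries gave 11 to 16 members called higher, the lowest number without acutely isolated replicate 2, where Eno1, Ldha and Taldo1 were no longer called.

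The 3 largest folds were those of Pgk1, Pgls and Gapdh, and the 250 bases upstream of a start of each are shown. Ldha, outside this ranking, was added. These genes had an ATAC-seq peak over an annotated start in all 10 libraries, as did 37 of the 38 members. Peaks were recorded per gene, not for the single start shown. The windows of Gapdh and Ldha lie inside the annotated genes (chr6:125161715-125166467 and chr7:46841475-46855627). The sequences are from RefSeq on GRCm38.p6, on the strand of the gene, and capitals mark ACGTG or GCGTG on either strand, the core to which hypoxia-inducible factors are known to bind.
Pgk1, chrX:106186850-106187099, plus strand: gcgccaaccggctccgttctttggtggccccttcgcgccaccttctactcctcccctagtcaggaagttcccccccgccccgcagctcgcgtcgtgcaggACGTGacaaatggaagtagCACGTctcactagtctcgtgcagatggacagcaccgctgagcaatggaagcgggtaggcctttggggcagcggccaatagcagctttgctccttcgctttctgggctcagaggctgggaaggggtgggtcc
Pgls, chr8:71591934-71592183, plus strand: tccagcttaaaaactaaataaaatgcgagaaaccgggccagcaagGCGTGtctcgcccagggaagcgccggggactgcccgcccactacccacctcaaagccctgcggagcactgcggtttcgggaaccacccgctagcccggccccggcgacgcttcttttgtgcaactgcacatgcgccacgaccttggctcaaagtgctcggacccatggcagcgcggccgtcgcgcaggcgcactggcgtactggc
Gapdh, chr6:125165774-125166023, minus strand: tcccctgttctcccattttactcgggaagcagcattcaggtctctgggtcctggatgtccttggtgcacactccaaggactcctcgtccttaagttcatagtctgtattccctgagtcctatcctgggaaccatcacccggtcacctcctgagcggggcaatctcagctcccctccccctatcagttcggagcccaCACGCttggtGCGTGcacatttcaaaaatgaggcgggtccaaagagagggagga
Ldha, chr7:46845554-46845803, plus strand: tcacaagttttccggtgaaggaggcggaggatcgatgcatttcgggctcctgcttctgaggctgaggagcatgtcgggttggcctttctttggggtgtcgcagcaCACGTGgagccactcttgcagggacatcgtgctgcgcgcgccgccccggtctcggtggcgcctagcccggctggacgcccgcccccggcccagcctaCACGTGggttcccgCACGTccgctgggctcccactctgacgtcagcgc
Pgk1 had 2 matches of ACGTG, Pgls 1 and Gapdh 2 of GCGTG, and this start of Ldha 5 of ACGTG, in which each of 2 CACGTG, the E-box that reads the same on both strands, counts on both. Either core was present upstream of 31 of the 38 members (81.6%) and of 11 of the 14 called higher (78.6%), against 60.0% of 10676 tested genes and 41.5% of all 27025 genes with a promoter in the table. CACGTG was upstream of 13.2% of the members, 7.14% of those called higher and 9.57% of the tested genes. Members had 58 such windows in all, and genes with several starts have more chances of a match. Counted per window, either core was in 69.0% of the members' windows and 75.0% of the 20 windows of those called higher. The share was 54.0% in the 13660 windows of tested genes.

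Start sites of the members were open in every group. For 37 of the 38 genes an ATAC-seq peak lay over an annotated start in all 10 libraries, as it did for 45.5% of 21761 genes, and the exception, Eno2, had none in the acutely isolated cells or in WT replicates 1 and 2. All 14 members called higher in culture already had a peak in both acutely isolated libraries. The median fold enrichment of the members' peaks was 14.3 and 14.4 in acutely isolated cells, 10.2 to 15.7 in WT and 13.8 to 14 in stabilized cultures, near the medians over all genes with a peak (12.6 and 13.1, 9.48 to 15.3, 12.7 to 12.8).

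The height of single start-site peaks differed between acutely isolated and cultured cells. Of the 37 members with a peak in all of these libraries, 2 had fold enrichments in the 6 WT cultures above those of both acutely isolated libraries, against 8.21% of 9907 genes, and 10 had lower ones without overlap, against 12.7%. The taller peaks were those of Ldhb, at 7.21 to 8.42 and then 12.4 to 24.4, and Hk2, at 5.09 to 5.87 and then 9.36 to 15.7. Among the lower ones were Pfkfb2 (11.4 to 12.1, then 4.42 to 5.44), G6pdx (13.5 to 13.8, then 5.35 to 8.86) and Hk1 (15.3 to 16.6, then 10.3 to 13.4). The other 7 were Gapdh (12.2 to 14.3, then 7.11 to 8.90), Pkm (13.5 to 13.8, then 6.20 to 10.8), Pgk1, Pgam1, Eno1, Pdk3 and Taldo1, all of them among the 14 members whose RNA was called higher in culture, of which 0 had a taller peak. Peaks were called in each library on its own, with 31844 to 98840 peaks, so that heights are descriptions and were not tested.

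Against the GFP-negative cells, acutely isolated ECs had 0 members called higher, against 8.34% of 15080 genes tested, and 5 called lower (13.2%), against 7.59%. At an unadjusted p under 0.05, 16 of 38 members passed, as did 6193 of 15080 genes, and DESeq2 also called 0 higher. The median log2 fold change was -0.78, against -0.06 over all genes, and TPM ranges did not overlap for 6 members that were higher and 21 that were lower in ECs (20.2% and 37.1% of all genes). The balance depended on scaling, as the 1257 genes called higher and 1144 lower became 932 and 1424, and the 5 members called lower became 10, when libraries were scaled by their size alone, which moved the median over all genes to -0.44. GFP-negative cells are a mixture, with summed astrocyte markers of 1730 to 4030, pericyte and smooth muscle markers of 3820 to 5740 and neuron markers of 227 to 281 TPM, against 117 to 491, 481 to 573 and 17.7 to 38.4 in acutely isolated ECs, and their part in the differences was not tested.

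Among the members called, lactate dehydrogenase B and neuronal enolase had the largest differences between ECs and the other brain cells. Ldhb had 165 and 231 TPM in GFP-negative and 1.58 and 3.41 in acutely isolated cells, a log2 change of -5.56 (SE 0.42, adjusted p = 0.00153). Eno2 had 19.4 and 19.7 and then 0.506 and 2.74 TPM (-4.52, SE 0.71, adjusted p = 0.0072), and Pdk2 had 50.1 and 30.3 and then 4.17 and 7.18 TPM (-2.25, SE 0.43, adjusted p = 0.0124). Neither library of one group reached the other for these genes, and Ldhb and Eno2 were called under all 14 alternative settings.

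Eno1 and Pgk1 were called lower in ECs as well, at -1.63 (SE 0.32, adjusted p = 0.0139) and -1.34 (SE 0.35, adjusted p = 0.0342), but with their copies added neither passed (-0.87, adjusted p = 0.0752, and -1.07, adjusted p = 0.0854). Under the replicate block Pgk1 was at -1.35 (adjusted p = 0.0621). Over protein-coding transcripts alone Pgk1 was at 0.26 (adjusted p = 0.853), so that its direction depended on the transcripts summed. Hk2 and Pfkfb4 had log2 fold changes of -8.46 (adjusted p = 0.00251) and -3.52 (adjusted p = 0.012) but under 5 TPM in a GFP-negative library. On the other side, Ldha, Taldo1 and Hk1 were higher in both ECs than in both GFP-negative libraries, at log2 fold changes of 1.14 (adjusted p = 0.07), 1.20 (adjusted p = 0.0834) and 0.85 (adjusted p = 0.249), which missed the threshold and passed without acutely isolated replicate 2, at 1.44, 1.61 and 1.37.

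The 3 WT culture experiments differed from one another for most members. An F test over the experiments passed for 34 of the 38 members (all but Dlat, Pdk1, Pfkfb1 and Rpe), as for 89.9% of 13026 genes. Replicates 1 and 2 differed from replicates 5 and 6 in genotype and isolation method. Between replicates 3 and 4 and replicates 5 and 6, read length and facility differed. Genotype cannot be told apart from method, nor read length from facility, nor either pair from the experiment itself. The 2 wells of 1 experiment share their cells. Replicates 3 and 4 had the highest mean TPM for 32 members, with a median ratio of 2.75 to replicates 1 and 2 (2.04 over all tested genes). By scaled counts they were highest for 17 members, replicates 5 and 6 for 14, and replicates 1 and 2 for 7.

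Some members went far beyond this common shift. Pdk2 had 0.407 and 0.580 TPM in replicates 1 and 2, 18.5 and 17.4 in replicates 3 and 4, and 2.38 and 1.92 in replicates 5 and 6 (adjusted p = 1.9e-09). Rpia was lowest where most others were highest, with 0.382 and 0.978 TPM in replicates 3 and 4 against 6.11 to 8.39 in the other cultures (adjusted p = 6.95e-08). Pgd had 4.19 and 7.48, then 96.6 and 86.6, then 18.8 and 19.1 TPM (adjusted p = 2.29e-08), and Pdk4 ran from 27.6 and 36.4 to 9.43 and 8.65 and 12.1 and 9.64 (adjusted p = 9.88e-09). For Pdk2 and Pgd the 3 pairs of wells did not overlap with one another, although the wells of a pair differed too, as for Pgd in replicates 1 and 2 and for Rpia in replicates 3 and 4.

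Stabilization of beta-catenin left no member past the threshold when all 4 stabilized were compared with all 6 WT cultures. The comparison called 0 of 12935 genes in either direction (0% higher and 0% lower), with 1421 genes and 4 members at an unadjusted p under 0.05 and with 15 genes higher and 3 lower but 0 members by DESeq2. TPM ranges did not overlap for 0 members, against 0.441% of all genes higher and 0.286% lower in stabilized cells. The median log2 fold change of the members was -0.22, against -0.07 over all genes. The excised exon is not seen by these transcript sums, in which Ctnnb1 had 230 to 747 TPM in WT and 306 to 808 in stabilized cultures. Axin2, a direct target of beta-catenin signaling, had 0.0998 to 0.269 and 0.974 to 1.86 TPM, with a log2 change of 3.29 (SE 0.54, adjusted p = 0.21).

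Of the fits that split or paired the cultures, some called members and some did not. With the replicate number as a block, Hk1 alone was called higher, at 1.10 (adjusted p = 0.0389), where 1.18% of 12759 genes were called higher and 0.314% lower. The block pairs wells by number, though for replicates 1 and 4 another number correlated better than their own. It also pairs stabilized replicates 3 and 4 (36 cycles) with WT replicates 3 and 4 (150 cycles). In TPM Hk1 was higher in stabilized replicates 1 and 2 (95.7 and 108, against 22.2 and 32.5) but lower in 3 and 4 (84.0 and 72.7, against 169 and 138). With method as a covariate over the 8 cultures of 36 cycles, 0 members were called, against 0.519% of genes higher and 0.0775% lower. Within method A (2 against 2), where 5.39% of 12827 genes were called higher and 0.920% lower, 4 members were called higher and 1 lower. Within method B of 36 cycles (2 against 2), 0 members were called, against 1.09% higher and 0.289% lower of 12809 genes. The WT cells of method A were C57BL/6J and those of method B carried Ctnnb1flex3/+, so method and control genotype cannot be told apart.

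In method A the wells of each genotype came from a single experiment, so that these p-values do not measure the spread between experiments. The genes that differed between these wells came from several steps. Pgd had 4.19 and 7.48 TPM in WT and 36.0 and 40.2 in stabilized cultures (2.08, adjusted p = 0.000472), Ldhb 3.07 and 5.50 and then 16.9 and 18.3 (1.21, adjusted p = 0.000798), Hk1 22.2 and 32.5 and then 95.7 and 108 (1.19, adjusted p = 0.000472), and Dld 11.1 and 18.0 and then 46.1 and 47.3 (1.01, adjusted p = 0.00141). Pdk4 was lower, at 27.6 and 36.4 and then 17.5 and 22.2 TPM (-1.48, adjusted p = 0.000417). In method B the same 5 genes had log2 fold changes of 0.25, 0.71, -0.24, -0.10 and 0.17 in that order. The interaction of stabilization with method passed for 20 of the 38 members, against 50.0% of 13328 genes, and these 5 genes were among them. Tpi1, Pgk1, Ldha and Pfkm had like values in both methods, with log2 fold changes of -0.47 and -0.47, -0.49 and -0.47, -0.63 and -0.65, and 0.61 and 0.63.

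**Figure D5:**
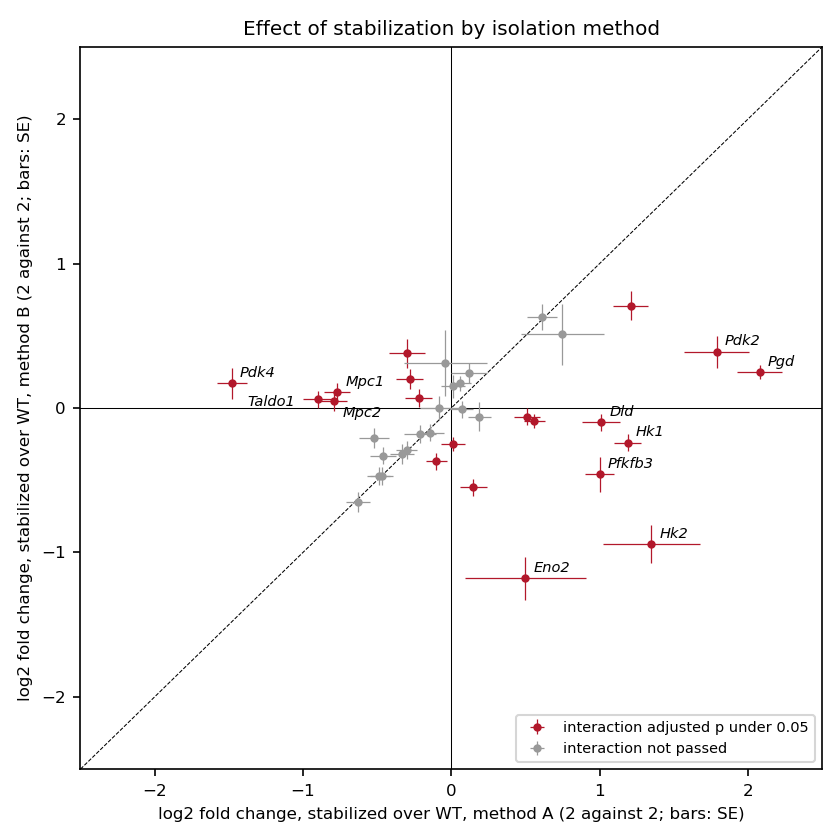
Each point is a member, with the log2 fold change of stabilized over WT culture in method A on the horizontal and in method B on the vertical axis (2 against 2 libraries each, bars SE), and the dashed line marks equal values. Red points passed the interaction test, 20 of 38, with Pgd (2.08 and 0.25), Hk2 (1.35 and -0.94) and Pdk4 (-1.48 and 0.17) far from the line.

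Stabilized cultures were also compared with the acutely isolated ECs, a comparison that shares the latter with that of the WT cultures. Of the members 16 were called higher (42.1%), against 15.1% of 13862 genes, and 2 lower (5.26%), against 11.0%. Among the genes called, the largest changes were those of Pgk1, Pgls, Gapdh and Eno1, at log2 fold changes of 5.05 (SE 0.69), 4.30 (SE 0.38), 4.21 (SE 0.72) and 3.20 (SE 0.36), with adjusted p of 0.00137, 0.000318, 0.00313 and 0.00068. Hk2, under the TPM minimum, was at 4.93 (adjusted p = 0.00222), and at 1.85 (adjusted p = 0.269) with the length offset. Ldhb (1.85, SE 0.25, adjusted p = 0.00137), Pdk4 (1.61, SE 0.21, adjusted p = 0.00105) and Pgd (1.08, SE 0.18, adjusted p = 0.00276) passed in stabilized cells, whose TPM of Ldhb was 8.86 to 18.3. With all 14 libraries in 1 edgeR fit, Pdk4 (1.64, adjusted p = 0.0838) and Pgd (1.10, adjusted p = 0.212) no longer passed. Without acutely isolated replicate 1 Pgd was at 0.90, under the minimum. Of the 18 calls, 10 were made under each of 17 alternative settings, with Ldhb among them. Ldha had 393 to 688 TPM and a log2 change of 1.34 (SE 0.65, adjusted p = 0.119). Bpgm and Pfkm were lower, at -3.01 and -1.74, and without acutely isolated replicate 1 Pfkm was at -0.02 (adjusted p = 0.928).

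Other genes of glucose metabolism and its control were followed with lists of their own. In WT cultures against acutely isolated cells, 13.6% of all 13757 genes tested were called higher and 10.3% lower, with 7380 at an unadjusted p under 0.05. Of 17 tested other isozymes and entry enzymes of glycolysis, 4 were called higher (23.5%) and 0 lower, with 11 at an unadjusted p under 0.05. Galk1, galactokinase, went from 0.474 to 0.506 TPM to 33.8 to 185 (6.01, SE 0.53, adjusted p = 0.000112), and Pgm1, phosphoglucomutase, from 0.860 to 1.02 to 12.7 to 59.3 (3.88, SE 0.50, adjusted p = 0.000591). Of 15 other genes of pyruvate and pentose phosphate metabolism, 5 were called higher (33.3%) and 1 lower (6.67%), led by Me1, the cytosolic malic enzyme that also yields NADPH (5.95, SE 0.54, adjusted p = 0.000124). Of 16 genes of the tricarboxylic acid cycle, 4 were called higher (25%) and 0 lower, with Mdh2 at 2.76 (SE 0.96, adjusted p = 0.042), and the list's median was 0.84.

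Among 24 tested regulators of glycolysis, 3 were called higher (12.5%, against 13.6% of all genes) and 5 lower (20.8%, against 10.3%), with a median of 0.10, as over all genes. Klf4, a factor induced by blood flow, had 89.7 to 142 TPM in acutely isolated and 2.17 to 8.42 in WT cultured cells (-6.09, SE 0.68, adjusted p = 0.000287). Egln3 was called higher, from at most 0.271 TPM to 8.62 to 19.8 (5.55, SE 1.35, adjusted p = 0.00975). Ppard, a receptor for fatty acids, was lower, at -4.36 (SE 0.83, adjusted p = 0.0033). Of 16 genes outside the members that hypoxia is known to induce, 7 were called higher (43.8%) and 3 lower (18.8%), with a median of 1.36. The lactate exporter Slc16a3 went from at most 0.541 TPM to 19.4 to 121 (8.02, SE 1.14, adjusted p = 0.000845), and the peptide hormone gene Adm from 3.85 to 7.85 to 283 to 1470 TPM (6.13, SE 0.66, adjusted p = 0.00026). Egln3 is on this list too, and with Slc16a3 and Adm it made up the 3 largest changes called. The 3 genes called lower had smaller changes. Slc2a1, the glucose transporter of the blood-brain barrier, is also on this list. It had 1590 to 1820 TPM in acutely isolated and 31.9 to 47.3 in GFP-negative cells (5.37, SE 0.41, adjusted p = 0.00153). In WT cultures it had a lower 210 to 676 TPM.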

How the data were processed

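RNA-seq (14 libraries) and ATAC-seq (10 libraries) of mouse brain ECs were taken as deposited. The authors quantified RNA-seq reads with Salmon 0.14.0 on GENCODE M21 transcripts of GRCm38, and the deposited files hold, per transcript, the estimated count, TPM and effective length. For ATAC-seq the authors aligned reads and called peaks per library with MACS2 2.1.2, and the deposited peak files hold a score, a fold enrichment and the −log10 of the p-value and of the q-value, of which the fold at annotated start sites was used.

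Estimated counts of 140198 transcripts were summed to 54288 symbols, rounded, and tested over protein-coding symbols with edgeR 4.0.16 (filterByExpr, TMM, quasi-likelihood F test, Benjamini-Hochberg adjustment) in R 4.3.3, with only the libraries of the groups compared in each fit. The SE of a log2 fold change was derived from its F value. Calls required 3 criteria, namely adjusted p under 0.05, a change beyond 1 log2 unit, and 5 TPM in every library of the higher group. Transcripts of other symbols near-identical to a member were found with blastn 2.17.0. Alternatives were DESeq2 1.42.0, scaling by library size, no filter on low counts, an offset for effective length, no TPM minimum, all libraries in 1 fit, a block for replicate number, summed wells, subsets by read length or isolation method, and leaving out single libraries. The fits with copies added, with protein-coding transcripts only, without mitochondrial genes, and of the libraries with shared numbers without the block were added after the data were seen. The edgeR fits were tested on simulated counts.

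Groups were taken from the sample titles, also for stabilized replicate 4, whose record names genomic DNA as its molecule. Same-numbered stabilized and WT cultures deviated together (correlations 0.31, 0.37, 0.33 and 0.37 over 14267 genes), and a block for the number was fitted. The number that correlated best was 2 for replicates 1 and 2 and 3 for replicates 3 and 4, so that pairing well by well was not shown. No libraries were alike within sampling noise. The total count of 24284843 to 94686456 per library limits the precision for members of few counts. The genes named are all 38 members and, from each other list, at most the 3 called genes with the largest change. Members and lists were chosen with earlier results of these data known.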

Additional observations from a re-analysis of the deposited data

Results flagged for a closer look

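In 3 of 76 groups of libraries tested member by member, 1 library stood apart from the others of its group by Dixon's criterion, where chance alone flags about 1 group in 20. Hk2 had 0.242 TPM in WT culture replicate 1 against 0.707 to 0.954 in the other 5. Pfkfb1 had 2.06 TPM in WT culture replicate 4 against 0.516 to 1.01. Pfkl had 62.8 TPM in stabilized culture replicate 3 against 55.4 to 55.7 in the other 3.

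The effect of stabilization differed between the isolation methods for 20 members by the interaction test in edgeR (50.0% of all genes). It was lower in method B than in method A, by the log2 values that follow, for Hk2 (-2.30, adjusted p = 0.0017), Pgd (-1.83), Eno2 (-1.69), Pfkfb3 (-1.47), Hk1 (-1.45, adjusted p = 7.32e-05), Pdk2 (-1.41), Dld (-1.12), Eno1 (-0.71), Gpi1 (-0.66), Gapdh (-0.58), Ldhb (-0.51), Pfkp (-0.28) and Aldoa (-0.26). It was higher in method B for Pdk4 (1.64, adjusted p = 0.000137), Taldo1 (0.95), Mpc1 (0.87), Mpc2 (0.82), Bpgm (0.67), Pgls (0.47) and Pdk3 (0.29). Method and the genotype of the WT cells cannot be told apart in this difference, and its p-values measure the spread between wells alone. For Hk1 the stabilized cultures of both methods were near each other in TPM (95.7 and 108, then 84.0 and 72.7), and the WT cultures of 36 cycles were not (22.2 and 32.5, then 104 and 101). Pdk4 had 17.5 and 22.2 and then 11.9 and 11.8 TPM in stabilized and 27.6 and 36.4 and then 12.1 and 9.64 TPM in WT cultures of 36 cycles.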

How the results depend on the processing

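Against acutely isolated ECs, WT cultures had 14 members higher and 2 lower, and single libraries left out gave 11 to 16 higher and 1 to 2 lower, the 1 without acutely isolated replicate 1 (Pfkm lost). For acutely isolated against GFP-negative cells, 0 members were higher and 5 lower, with 0 to 3 higher (3 without acutely isolated replicate 2) and 4 to 7 lower when libraries were left out, 10 lower with scaling by library size, and 3 lower with copies added. For stabilized against WT cultures the 0 higher and 0 lower became 1 higher under the replicate block, and 4 higher and 1 lower within method A, and stayed at 0 to 0 when libraries were left out. For stabilized against acutely isolated cells the 16 higher and 2 lower became 15 to 18 and 1 to 3 when libraries were left out, with 1 lower without any 1 of the stabilized replicates, and 1 lower under the replicate block and also in the same libraries without it. Directions turned for Pgd in WT culture against acutely isolated cells (-1.10, adjusted p = 0.047, in the libraries with shared numbers without the block) and for Pgk1 in acutely isolated against GFP-negative cells (0.26, protein-coding transcripts only), and the cause was not tested. In the comparisons with acutely isolated cells, same-numbered libraries had correlations of -0.04, 0.08 and -0.03 and were not taken as pairs. The block there gave 13 higher and 2 lower in WT against acutely isolated, 0 and 4 in acutely isolated against GFP-negative, and 15 and 1 in stabilized against acutely isolated cells. Among all genes it called 2117 and 1784 of 13380, 1034 and 1070 of 15080, and 2191 and 1383 of 13659 in that order. Over all genes, dropping the TPM minimum changed 1867 higher and 1411 lower to 3159 and 2830 in WT against acutely isolated, 1257 and 1144 to 1505 and 2990 in acutely isolated against GFP-negative, and 2090 and 1530 to 3404 and 3211 in stabilized against acutely isolated cells. The interaction with method passed for 20 members, for 16 with the length offset and for 18 with scaling by library size. Scaling by library size moved the median of all genes' log2 changes in WT culture against acutely isolated cells from 0.10 to 0.30. Depth was low for Pfkfb1 and Hk2 in acutely isolated cells, with 2 and 38 and with 4 and 13 counts.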
